A study of Homo sapiens with 12 samples.

Results

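The genes described here encode 10 enzymes of serine, glycine, asparagine, folate and proline synthesis: PHGDH, PSAT1, PSPH, SHMT1, SHMT2, MTHFD1, MTHFD2, ALDH1L2, ASNS and PYCR1. They were taken by symbol from the count tables of a MUC1-C silencing and a MUC1-C overexpression experiment in prostate cancer cells, where they are 10 of 28008 and 10 of 25435 listed genes. The set was chosen with earlier results of both experiments known, so the differences of these genes between groups are a description of the libraries and not a test of the set. All 10 genes passed the filter on low counts in both experiments.

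In the silencing experiment, the samples were LNCaP-ER/tet-MUC1shRNA cells, an enzalutamide-resistant derivative of the LNCaP prostate cancer line that carries a doxycycline-inducible shRNA against MUC1. Both groups carried the shRNA, and 3 cultures received vehicle and 3 received 500 ng/mL doxycycline (DOX) for 7 days. No library of cells without this shRNA that received DOX was used here, so a change due to DOX itself and one due to the shRNA cannot be told apart. In the overexpression experiment, 3 libraries of LNCaP cells were set against 3 libraries of LNCaP/MUC1-C OE cells, which express exogenous MUC1-C. The titles of the latter samples read shMUC1-C OE, a prefix that the study does not use for these cells, and their MUC1 counts, given below, were high. The labels call the control LNCaP cells wild-type while their columns in the table are named vector, and whether they carried an empty vector is not settled here. Here each group was its own line, so a change due to MUC1-C and one that arose between the lines otherwise cannot be told apart. RNA-Seq was of bulk cultures, in which fewer cells of a kind and less RNA per cell cannot be told apart.

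PHGDH, PSAT1 and PSPH act in sequence to make serine from a glycolytic intermediate. SHMT1 in the cytosol and SHMT2 in mitochondria split serine into glycine and a one-carbon unit, which folate enzymes such as MTHFD1, MTHFD2 and ALDH1L2 oxidize or reduce for purine, thymidylate and NADPH production. ASNS makes asparagine from aspartate and glutamine, and PYCR1 completes proline synthesis in mitochondria. ATF4, the transcription factor of the integrated stress response, is known to activate many of these genes, in part through C/EBP-ATF composite elements, and MYC is known to act through E-boxes.

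RefSeq promoter windows, of 250 bases before and 50 bases after the annotated start on GRCh38.p14, were found for 6 of the 10 genes (PHGDH, PSAT1, SHMT1, MTHFD1, MTHFD2 and ASNS) and not for PSPH, SHMT2, ALDH1L2 and PYCR1. The windows were searched on both strands for the letters TGATGNAA of the C/EBP-ATF element and for the E-box CACGTG. The C/EBP-ATF letters were found in 3.62% of all 35116 windows in the table and the E-box in 7.26%. Among the 6 genes, the C/EBP-ATF letters were found in ASNS alone, beginning 68 bases before the start of 1 of its 2 windows, and the E-box in MTHFD1 alone, beginning 15 bases before the start. No match in a window of this length says only that these letters are not there. The windows of 3 genes are shown, because ASNS had the largest rise in the overexpression experiment, MTHFD2 the largest fall in the silencing experiment, and MTHFD1 the smallest spread between libraries of LNCaP/MUC1-C OE cells. Capitals mark the matched letters, and each sequence runs 5′ to 3′ on the strand of its gene. The ASNS window lies at chr7:97872359-97872658 on the minus strand, the MTHFD1 window at chr14:64388103-64388402 on the plus strand and the MTHFD2 window at chr2:74198365-74198664 on the plus strand.
ASNS: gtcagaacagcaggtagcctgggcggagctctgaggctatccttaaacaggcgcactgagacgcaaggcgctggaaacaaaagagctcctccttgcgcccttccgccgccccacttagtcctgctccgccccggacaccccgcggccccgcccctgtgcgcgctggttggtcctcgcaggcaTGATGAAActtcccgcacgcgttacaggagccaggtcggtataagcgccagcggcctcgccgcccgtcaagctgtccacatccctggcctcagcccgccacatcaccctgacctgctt
MTHFD1: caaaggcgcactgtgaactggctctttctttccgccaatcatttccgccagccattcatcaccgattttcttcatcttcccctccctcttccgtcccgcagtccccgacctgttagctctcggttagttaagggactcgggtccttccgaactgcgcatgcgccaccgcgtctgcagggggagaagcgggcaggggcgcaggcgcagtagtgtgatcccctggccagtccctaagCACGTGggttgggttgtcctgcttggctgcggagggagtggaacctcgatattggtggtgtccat
MTHFD2: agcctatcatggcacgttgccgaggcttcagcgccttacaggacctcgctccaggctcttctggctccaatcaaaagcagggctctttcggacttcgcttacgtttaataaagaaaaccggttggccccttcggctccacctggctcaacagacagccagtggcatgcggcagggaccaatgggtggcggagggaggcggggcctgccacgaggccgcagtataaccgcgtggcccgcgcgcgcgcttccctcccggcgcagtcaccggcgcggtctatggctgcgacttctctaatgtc

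MUC1 is the gene that the shRNA targets. The 3 vehicle libraries held 26, 10 and 13 MUC1 counts, and those labelled DOX held 3, 42 and 8. Replicate 2 of the latter exceeded every vehicle library, which is not the direction of its label. All of these counts are low, and whether the label holds was not tested. Directions below are those of the libraries labelled DOX. With all libraries, MUC1 had a log2 fold change of 0.12 (SE 0.93, adjusted p = 0.93, edgeR). Without DOX replicate 2 it was at -1.83, and the adjusted p of 0.062 was not under 0.05 either (edgeR). Lower MUC1 in the libraries labelled DOX was thus not detected, and silencing names the design of the experiment. Genes with 0 counts made up 36.4%, 38.1% and 36.4% of those listed in vehicle replicates 1 to 3 and 30.7%, 11.2% and 27.95% in the libraries labelled DOX. RN7SK, a small nuclear RNA, took 2.37% to 3.08% of the counts in vehicle libraries and 1.04% to 1.77% in the libraries labelled DOX. Neither measure overlapped between the groups. In the overexpression experiment, MUC1 was counted 25 to 31 times in LNCaP libraries and 9168 to 12622 times in LNCaP/MUC1-C OE libraries. Total counts were 28045894 to 45807989 in the silencing experiment and 13806856 to 19208944 in the overexpression experiment. Levels are given as CPM, the counts scaled to a common library size after TMM normalization. The summed level of 9 prostate luminal markers was 4687 to 5079 CPM in vehicle libraries, 5487 to 5912 CPM in the libraries labelled DOX, 354 to 369 CPM in the LNCaP libraries and 94.2 to 105 CPM in those of LNCaP/MUC1-C OE cells, where 3 or 4 of the 9 markers, KLK3 included, had 0 counts. Markers of basal, neuroendocrine, fibroblast, leukocyte and liver cells summed to 16.1 to 21.5 CPM in vehicle, 32.5 to 39.9 CPM in DOX, 79.3 to 84.7 CPM in LNCaP and 61.3 to 71.5 CPM in LNCaP/MUC1-C OE libraries. Of these markers, CD68 had a mean of 6.59 CPM in vehicle and 21.8 CPM in DOX libraries, and COL1A1 10.8 and 8.52 CPM. No other marker of this sum had a mean above 1.48 CPM in either group (SYP in DOX libraries). The part of these differences between libraries in the results below was not tested.

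Serine synthesis genes were lower in the libraries labelled DOX and higher in LNCaP/MUC1-C OE cells. All 3 of them passed the threshold of an adjusted p under 0.05 in both experiments. PSAT1, the aminotransferase of the pathway, had the largest change of the 3, with a log2 fold change of -1.13 in the libraries labelled DOX and 1.71 in LNCaP/MUC1-C OE cells. In the silencing experiment, 7 of the 10 genes passed in all, each of them lower, where 27.3% of 14683 genes tested passed, 14.5% as lower and 12.8% as higher. Under MUC1-C overexpression, 9 of the 10 passed, each of them higher, where 67.3% of 13836 genes tested passed, 33.2% as higher and 34.1% as lower. Since the genes were chosen on these contrasts, nothing is read from these counts. Adjusted p-values ranged from 0.00706 to 0.0195 over the 7 genes and from 8.72e-12 to 0.0144 over the 9 genes (quasi-likelihood test of edgeR, adjusted over all genes tested by the Benjamini-Hochberg method). The median log2 fold change of the 10 genes was -0.83 in the silencing experiment and 1.08 in the overexpression experiment, beside -0.02 and -0.01 over all genes tested.

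**Figure D1:**
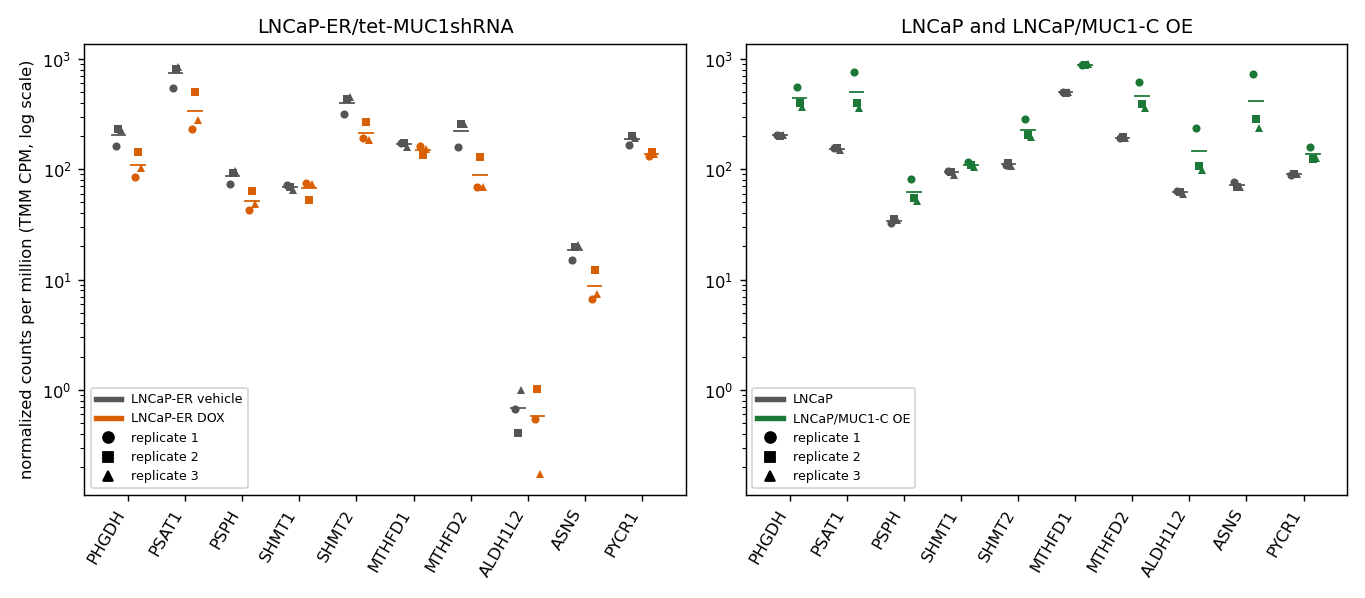
TMM-normalized CPM (log axis) of the 10 genes in each library, with LNCaP-ER vehicle and DOX on the left and LNCaP and LNCaP/MUC1-C OE on the right. Marker shapes give the replicate, and short lines give the group mean. The library labelled DOX replicate 2 sits above the other DOX libraries for 8 of 10 genes, and LNCaP/MUC1-C OE replicate 1 sits above the other overexpressing libraries for 9 of 10.

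PHGDH, the first and committed enzyme of the pathway (chromosome 1, 119711934 to 119744215), was at 162, 230 and 225 CPM in vehicle replicates 1 to 3 and at 84.2, 142 and 102 CPM in the libraries labelled DOX. Every DOX library was below every vehicle library. Its log2 fold change was -0.91 (SE 0.20). For MUC1-C overexpression, PHGDH was at 204, 200 and 203 CPM in LNCaP cells and at 561, 394 and 366 CPM in LNCaP/MUC1-C OE cells. The groups did not overlap, and the spread among the overexpressing libraries (SD 105 CPM) was far wider than among the controls (SD 1.96 CPM). The log2 fold change was 1.12 (SE 0.18).

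PSAT1 (chromosome 9, 78297125 to 78330093) was at 544, 817 and 851 CPM in vehicle replicates 1 to 3 and at 230, 504 and 280 CPM in the libraries labelled DOX. The groups did not overlap, and the library labelled DOX replicate 2 came closest to the vehicle range. The standard error of its log2 fold change of -1.13 was 0.29. In LNCaP cells PSAT1 was at 155, 155 and 150 CPM, and in LNCaP/MUC1-C OE cells at 761, 395 and 356 CPM. Replicate 1 held the highest value, and the log2 fold change of 1.71 had a standard error of 0.36. There, the adjusted p of PSAT1 was 0.0129 with all libraries and reached 0.0528 when 1 LNCaP library was left out (edgeR).

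PSPH, the phosphatase that releases serine (chromosome 7, 56011064 to 56051444), was at 72.8, 92.3 and 96.5 CPM in vehicle replicates 1 to 3 and at 42.3, 63.5 and 48.8 CPM in the libraries labelled DOX. The groups did not overlap, with a log2 fold change of -0.76 (SE 0.16). In LNCaP cells it was at 32.4, 35.0 and 34.3 CPM and in LNCaP/MUC1-C OE cells at 81.0, 54.4 and 52.0 CPM. Here the log2 fold change was 0.88 (SE 0.18), again with no overlap.

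The ratio of PSAT1 to PHGDH counts, which does not depend on how libraries are scaled, was 3.35, 3.55 and 3.79 in vehicle libraries and 2.73, 3.55 and 2.74 in the libraries labelled DOX, so the groups overlapped. It was 0.761, 0.775 and 0.740 in LNCaP libraries and 1.36, 1.00 and 0.973 in LNCaP/MUC1-C OE libraries, all 3 of which were above the controls. The ratio of PSPH to PHGDH counts was 0.401 to 0.448 in vehicle, 0.447 to 0.503 in DOX, 0.159 to 0.175 in LNCaP and 0.138 to 0.145 in LNCaP/MUC1-C OE libraries.

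Of the pair that converts serine to glycine, the mitochondrial SHMT2 changed in both experiments, while the cytosolic SHMT1 passed the threshold in the overexpression experiment alone. Whether the change of SHMT1 differed between experiments was not tested. SHMT2 (chromosome 12, 57229711 to 57234935) was at 318, 433 and 450 CPM in vehicle replicates 1 to 3 and at 192, 267 and 184 CPM in the libraries labelled DOX, with no overlap and a log2 fold change of -0.90 (SE 0.18). It was at 109, 114 and 108 CPM in LNCaP cells and at 282, 203 and 195 CPM in LNCaP/MUC1-C OE cells, again with no overlap and a log2 fold change of 1.04 (SE 0.16). SHMT1 (chromosome 17, 18327873 to 18363550) was at 72.6, 68.5 and 64.4 CPM in vehicle libraries and at 75.1, 52.9 and 74.0 CPM in the libraries labelled DOX. The DOX libraries lay on both sides of the vehicle libraries, and the log2 fold change was -0.02 (SE 0.14). In LNCaP cells SHMT1 was at 95.7, 95.02 and 89.4 CPM and in LNCaP/MUC1-C OE cells at 116, 110 and 104 CPM. The rise of 0.23 (SE 0.05) on the log2 scale was the smallest of the 10 genes, and it was 0.08 and no longer past the threshold when libraries were scaled by their totals alone (adjusted p = 0.20, edgeR).

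Among the folate enzymes, MTHFD2 changed in both experiments and MTHFD1 in the overexpression experiment. MTHFD2, the mitochondrial dehydrogenase and cyclohydrolase (chromosome 2, 74198615 to 74217565), was at 160, 255 and 257 CPM in vehicle replicates 1 to 3 and at 69.6, 129 and 69.4 CPM in the libraries labelled DOX. The groups did not overlap, and the log2 fold change of -1.33 (SE 0.27) was the largest fall of the 10 genes, exceeded by 2.37% of all genes tested. In LNCaP cells it was at 193, 196 and 192 CPM and in LNCaP/MUC1-C OE cells at 620, 393 and 362 CPM, with a log2 fold change of 1.24 (SE 0.24). The MTHFD2 window shown above holds neither of the searched motifs.

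MTHFD1, the cytosolic enzyme that joins 3 folate activities in a single protein (chromosome 14, 64388353 to 64460025), was at 173, 174 and 158 CPM in vehicle replicates 1 to 3 and at 162, 133 and 152 CPM in the libraries labelled DOX. The groups overlapped, and the log2 fold change was -0.17 (SE 0.10). MTHFD1 was at 501, 489 and 497 CPM in LNCaP cells and at 887, 883 and 889 CPM in LNCaP/MUC1-C OE cells. The overexpressing libraries differed less for MTHFD1 (SD 2.72 CPM) than for any other of the 10 genes, and the log2 fold change of 0.84 had a standard error of 0.04. Its promoter window holds the E-box shown above.

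ALDH1L2, the mitochondrial enzyme that oxidizes formyl-tetrahydrofolate and yields NADPH (chromosome 12, 105019790 to 105084458), was counted at most 30 times in any LNCaP-ER library. Vehicle replicates 1 to 3 held 25, 12 and 28 counts and the libraries labelled DOX held 18, 30 and 8, so that its log2 fold change of -0.28 had a standard error of 0.69 and a difference was not detectable at this depth. In LNCaP cells it was at 63.4, 61.7 and 59.99 CPM, and in LNCaP/MUC1-C OE cells at 237, 107 and 98.2 CPM. All 3 overexpressing libraries were above all LNCaP libraries. The log2 fold change of 1.25 (SE 0.42) did not pass the threshold (adjusted p = 0.0569, edgeR), and over its alternatives the adjusted p ran from 1.54e-10 without LNCaP/MUC1-C OE replicate 1 to 0.148.

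**Figure D2:**
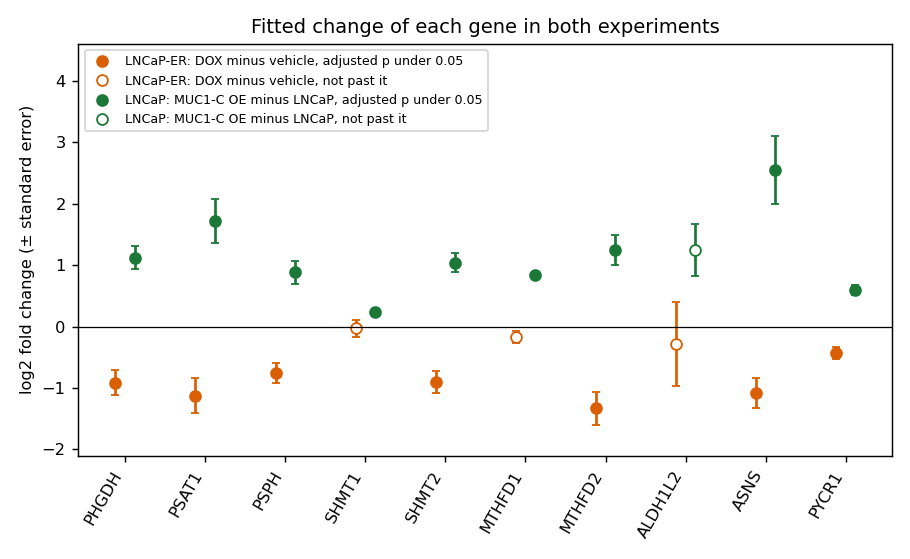
Fitted log2 fold change of each of the 10 genes, with its standard error, for DOX minus vehicle in LNCaP-ER cells and for LNCaP/MUC1-C OE minus LNCaP cells. Filled points passed an adjusted p under 0.05 over all genes tested and open points did not. Fitted values lie between -1.33 and -0.02 in the silencing experiment and between 0.23 and 2.55 in the overexpression experiment. In the former, SHMT1, MTHFD1 and PYCR1 turned sign on the log2(TPM + 1) scale, where the median of all genes rose by 0.45.

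Within libraries, the ratio of SHMT2 to SHMT1 counts was 4.38, 6.31 and 6.99 in vehicle replicates 1 to 3 and 2.56, 5.05 and 2.49 in the libraries labelled DOX. The library labelled DOX replicate 2 was above vehicle replicate 1, so the groups overlapped. The same ratio was 1.14, 1.20 and 1.20 in LNCaP libraries and 2.44, 1.85 and 1.88 in LNCaP/MUC1-C OE libraries, with no overlap. The ratio of MTHFD2 to MTHFD1 counts was 0.927, 1.47 and 1.62 in vehicle libraries and 0.429, 0.969 and 0.455 in the libraries labelled DOX, again with the library labelled DOX replicate 2 inside the vehicle range. It was 0.385, 0.401 and 0.386 in LNCaP libraries and 0.699, 0.445 and 0.407 in LNCaP/MUC1-C OE libraries, where 2 of the 3 values lay just above the controls. These ratios are of counts without correction for length, so they compare libraries and not the genes of a pair.

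**Figure D3:**
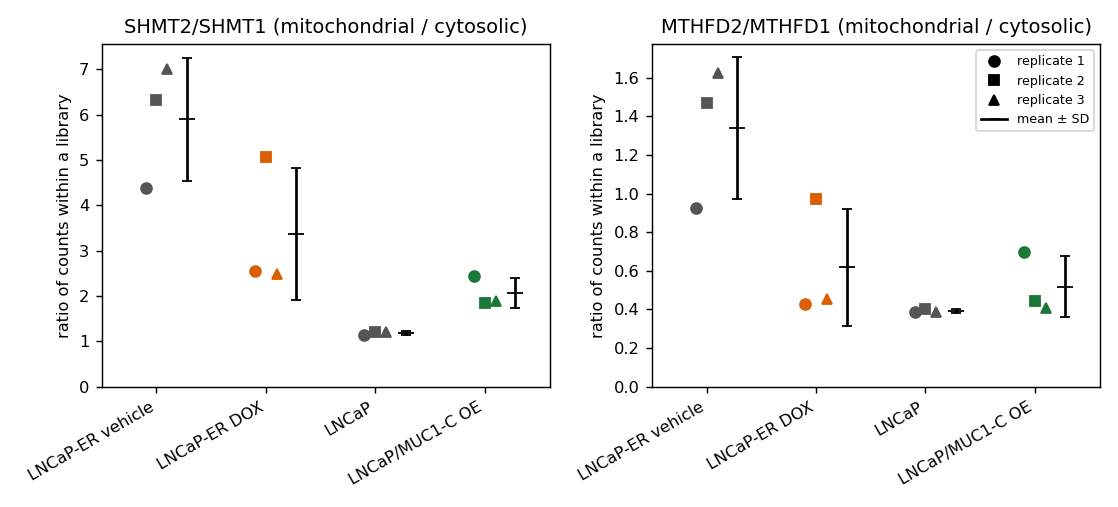
Ratio of counts of the mitochondrial to the cytosolic gene within each library, for SHMT2 over SHMT1 and for MTHFD2 over MTHFD1, in the 4 groups. Coloured markers are libraries, with shapes for replicates, and black bars give the mean ± SD of 3 libraries. The mean SHMT2 to SHMT1 ratio was 5.90 in vehicle and 3.36 in DOX libraries, with overlap, and 1.18 in LNCaP and 2.06 in LNCaP/MUC1-C OE libraries.

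ASNS, the gene of asparagine synthetase (chromosome 7, 97851677 to 97928441), was at 15.1, 19.8 and 20.7 CPM in vehicle replicates 1 to 3 and at 6.67, 12.3 and 7.33 CPM in the libraries labelled DOX. The groups did not overlap, and the log2 fold change was -1.08 (SE 0.24). ASNS was at 76.1, 68.5 and 68.9 CPM in LNCaP cells and at 727, 286 and 237 CPM in LNCaP/MUC1-C OE cells. Replicate 1 thus held more than the other overexpressing libraries together, and those were in turn above every LNCaP library. The log2 fold change of 2.55 (SE 0.55) was exceeded by the rise of 0.405% of genes tested, and it was 1.87 without LNCaP/MUC1-C OE replicate 1. With 1 LNCaP library left out, its adjusted p rose from 0.0144 to as much as 0.0583 (edgeR). The C/EBP-ATF letters in its promoter window stand in capitals above.

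PYCR1, the last enzyme of proline synthesis (chromosome 17, 81932391 to 81937300), was at 166, 200 and 191 CPM in vehicle replicates 1 to 3 and at 132, 144 and 138 CPM in the libraries labelled DOX. The log2 fold change of -0.43 (SE 0.10) was the smallest of the 7 that passed the threshold, and the groups did not overlap. On the deposited TPM scale, where the median of all genes rose by 0.45 on the log2(TPM + 1) scale, PYCR1 was 0.13 higher, SHMT1 0.49 higher and MTHFD1 0.37 higher in the libraries labelled DOX. SHMT1 was the 1 gene of the 10 that passed as higher there (adjusted p = 0.04996, limma). Relative to that median, PYCR1 was at -0.32, SHMT1 at 0.04 and MTHFD1 at -0.08. The other genes tested on that scale kept their sign, and of these PSAT1 (-0.62) and MTHFD2 (-0.78) passed as lower (limma). In LNCaP cells PYCR1 was at 88.9, 90.9 and 91.0 CPM and in LNCaP/MUC1-C OE cells at 160, 123 and 127 CPM, with a log2 fold change of 0.60 (SE 0.08).

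The same library was the highest of its group for most of these genes. The library labelled DOX replicate 2 was the highest of the DOX libraries for 7 of the 7 genes that passed as lower, while it was the highest for 43.0% of all genes that passed as lower. LNCaP/MUC1-C OE replicate 1 was the highest of its group for 8 of the 9 genes that passed as higher, MTHFD1 being the exception, while it was the highest for 39.7% of all genes that passed as higher. The summed level of the 10 genes was 1684, 2289.7 and 2315 CPM in vehicle replicates 1 to 3, 994, 1449 and 1056 CPM in the libraries labelled DOX, 1519, 1506 and 1493 CPM in LNCaP libraries, and 4430.5, 2949 and 2787 CPM in LNCaP/MUC1-C OE libraries. Without the library labelled DOX replicate 2, all 7 genes passed the threshold as lower. Of the fits that left out 1 library, this was the one where the most of all genes passed. Without that of replicate 3, 3 genes passed (PSPH, SHMT2 and MTHFD2), and the count of all genes in that fit is not given here. Without vehicle replicate 3, 4 passed (the same genes and PHGDH), in the fit where the fewest of all genes passed. Nothing is read from these counts about the 10 genes.

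Per length, the order of the genes differed between the experiments. In vehicle-treated LNCaP-ER cells, PSAT1 had the highest level at 220 ± 26.4 TPM (SD, n = 3), followed by SHMT2 at 91.8 ± 6.52 TPM, PHGDH at 70.3 ± 6.97 TPM, MTHFD2 at 65.8 ± 9.72 TPM and PYCR1 at 55.1 ± 4.88 TPM. PHGDH and MTHFD2 lay within their spread of each other, as did MTHFD2 and PYCR1. Lower levels followed for MTHFD1 at 32.1 ± 5.93 TPM and PSPH at 28.2 ± 1.22 TPM, which did not differ beyond their spread, then for SHMT1 at 18.3 ± 3.75 TPM, ASNS at 4.02 ± 0.22 TPM and ALDH1L2 at 0.0560 ± 0.020 TPM. For the overexpression experiment, counts were divided by the gene lengths that the TPM and counts of the silencing experiment imply. Whether these lengths hold for the overexpression counts, which list fewer genes and some older symbols, was not tested. The cell lines and the separate counting thus cannot be told apart as sources of the different order. On this per-length scale, with PHGDH of LNCaP cells set to 1, MTHFD1 stood at 1.34, MTHFD2 at 0.827 and PSAT1 at 0.666. PYCR1 stood at 0.383, SHMT2 at 0.366, SHMT1 at 0.352, ASNS at 0.223, PSPH at 0.158 and ALDH1L2 at 0.0726. In LNCaP/MUC1-C OE cells, again with PHGDH at 1, PSAT1 stood at 0.975 and ASNS at 0.565.

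Beyond the 10 genes, a list of 63 related genes covered serine and glycine breakdown, other folate enzymes, carriers, amino acid and proline metabolism, the methionine cycle and regulators. In the silencing experiment, 54 of them were tested, of which 6 rose and 12 fell in the libraries labelled DOX. Together these were 18 of 54 genes, where 27.3% of all genes passed, and their list had a median log2 fold change of -0.13. For MUC1-C overexpression, 53 were tested, of which 20 rose and 18 fell in LNCaP/MUC1-C OE cells, with a median of 0.07. These were 38 of 53 genes, where 67.3% of all genes passed. Scaling changed these splits. With library size only, 14 rose and 8 fell in the first and 12 rose and 24 fell in the second, and on the log2(TPM + 1) scale 19 rose and 1 fell in the first.

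**Figure D4:**
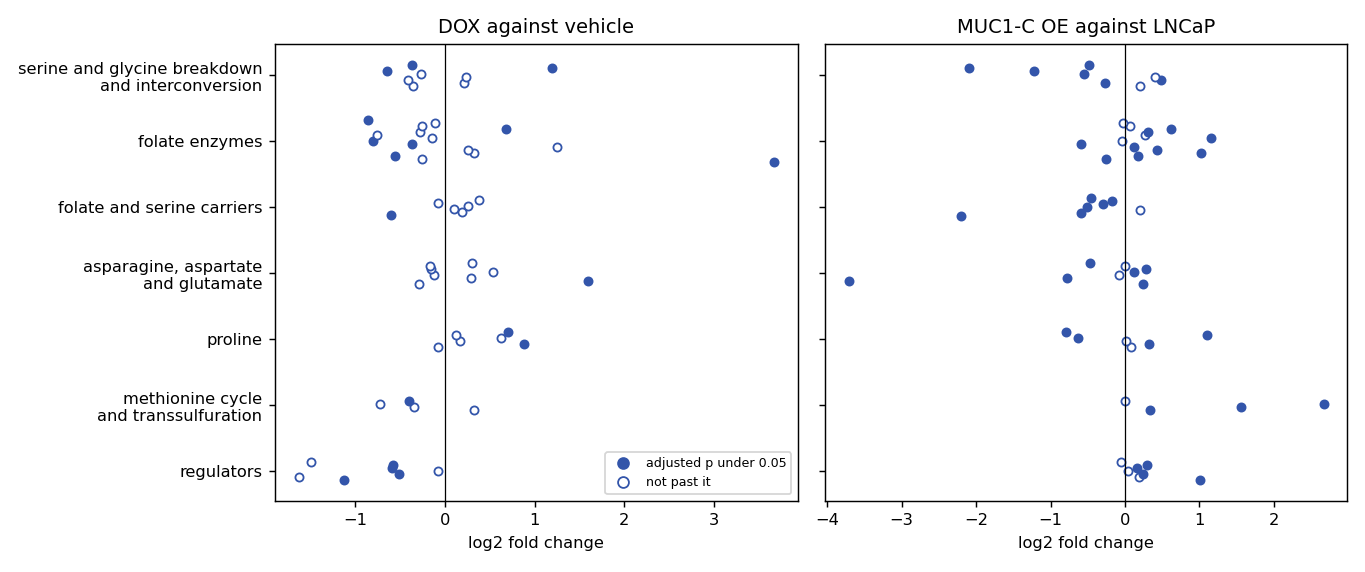
Log2 fold change of the tested members of the 7 lists of related genes, for DOX against vehicle on the left and MUC1-C OE against LNCaP on the right. Each point is a gene, and filled points passed an adjusted p under 0.05 over all genes tested. Of the regulators, 4 of 7 fell on the left, where 12.8% of all genes passed as higher and 14.5% as lower. Of these 4, MYC and EHMT2 turned sign on the log2(TPM + 1) scale, where the median of all genes rose by 0.45. On the right, 4 of 7 regulators rose and 6 of 7 folate and serine carriers fell. There, 33.2% of all genes passed as higher and 34.1% as lower.

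Of the 7 regulators, ATF4, MYC, NFE2L2 and EHMT2 passed as lower in the silencing experiment and as higher in the overexpression experiment. ATF4 was at 432, 654 and 653 CPM in vehicle replicates 1 to 3 and at 190, 399 and 207 CPM in the libraries labelled DOX, the largest fall among related genes that passed (log2 fold change -1.13, SE 0.28). No DOX library reached the vehicle range, and the library labelled DOX replicate 2 was again the highest of its group. The call was lost in 4 of the 6 fits that left out 1 library, with an adjusted p of up to 0.0797 when DOX replicate 3 was out (edgeR). In LNCaP/MUC1-C OE cells ATF4 was at 926, 893 and 915 CPM, against 449, 471 and 435 CPM in LNCaP cells (log2 fold change 1.01, SE 0.04). Unlike ASNS and PSAT1, ATF4 did not stand out in LNCaP/MUC1-C OE replicate 1. MYC was at 375, 623 and 622 CPM in vehicle libraries and at 391, 376 and 313 CPM in the libraries labelled DOX. These groups overlapped, and its log2 fold change of -0.59 (SE 0.19) lost the threshold in 5 of the 6 fits that left out 1 library and was 0.003 on the log2(TPM + 1) scale. MYC rose by 0.16 (SE 0.05) on the log2 scale in LNCaP/MUC1-C OE cells, and without LNCaP replicate 1 the rise of 0.12 did not pass (adjusted p = 0.090, edgeR). NFE2L2, which controls antioxidant genes, was at -0.58 (SE 0.10) and 0.30 (SE 0.06), and EHMT2, a histone methyltransferase, at -0.51 (SE 0.09) and 0.24 (SE 0.05), in the silencing and overexpression experiments. On the log2(TPM + 1) scale, the former values were -0.02 for NFE2L2 and 0.03 for EHMT2 and did not pass (limma). The median of all genes rose by 0.45 on that scale, and the values of MYC, NFE2L2 and EHMT2 lay below it. With library size only, MYC was at 0.007 and EHMT2 at 0.09 in the overexpression experiment, and neither passed (edgeR). DDIT3 and TRIB3, other genes of the integrated stress response, did not pass in either experiment, with log2 fold changes of -1.63 (SE 0.63) and -1.49 (SE 0.50) in the silencing experiment and 0.18 (SE 0.19) and -0.05 (SE 0.11) in the overexpression experiment.

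Of the 15 folate enzymes tested outside the 10 genes in the silencing experiment, 2 rose and 4 fell. Among all genes tested there, 12.8% passed as higher and 14.5% as lower. TYMS, which makes thymidylate, fell by 0.85 (SE 0.20) on the log2 scale, and GGH, which trims folate polyglutamates, fell by 0.80 (SE 0.16). MTHFD1L, the mitochondrial formate-producing synthetase, was at -0.76 (SE 0.25) and did not pass (adjusted p = 0.0525, edgeR). With overexpression of MUC1-C, MTHFD1L rose by 1.15 (SE 0.13), GGH fell by 0.60 (SE 0.05), and TYMS did not pass at -0.03 (SE 0.05). Of the carriers, SFXN1, which brings serine into mitochondria, fell by 0.60 (SE 0.11) in the libraries labelled DOX and by 0.59 (SE 0.04) in LNCaP/MUC1-C OE cells. SLC25A32, the mitochondrial folate carrier, was at -0.08 (SE 0.12) in the silencing experiment and fell by 0.17 (SE 0.07) in the overexpression experiment, with overlap of the groups in both.

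Genes that consume serine, glycine and homocysteine gave other patterns. GLDC, of the glycine cleavage system, fell in both experiments, by 0.64 (SE 0.19) in the libraries labelled DOX, a call lost in 5 of 6 fits that left out 1 library, and by 0.55 (SE 0.06) in LNCaP/MUC1-C OE cells. SDSL, a serine dehydratase-like gene, rose by 1.19 (SE 0.22) in the libraries labelled DOX and fell by 2.10 (SE 0.14) in LNCaP/MUC1-C OE cells. The transsulfuration genes CTH and CBS, which make cysteine from serine and homocysteine, were among the largest rises in LNCaP/MUC1-C OE cells. CTH was at 15.1, 13.99 and 13.3 CPM in LNCaP cells and at 144, 68.3 and 58.5 CPM in LNCaP/MUC1-C OE cells (log2 fold change 2.67, SE 0.47), with replicate 1 highest as for ASNS. CBS was at 138, 136 and 128 CPM in LNCaP cells and at 462, 347 and 371 CPM in LNCaP/MUC1-C OE cells (log2 fold change 1.55, SE 0.10). In the silencing experiment CTH was at -0.73 (SE 0.28) and CBS at -0.35 (SE 0.33), and neither passed the threshold.

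Of the genes of asparagine, ASRGL1, which breaks asparagine down, moved opposite to ASNS in both experiments. It was at 5.95, 9.46 and 9.06 CPM in vehicle libraries and at 27.0, 13.6 and 33.3 CPM in the libraries labelled DOX (log2 fold change 1.60, SE 0.32), and it fell by 0.78 (SE 0.08) in LNCaP/MUC1-C OE cells. ASNSD1 was at -0.28 (SE 0.12) without passing in the silencing experiment and rose by 0.24 (SE 0.05) in the overexpression experiment. ASPG, another asparaginase, had 0 counts in 4 of the 6 libraries of the silencing experiment and was not tested there. It was counted 29, 22 and 23 times in LNCaP libraries and 2, 1 and 1 times in LNCaP/MUC1-C OE libraries, and it passed as lower. Of the other proline genes, PYCR3, a paralog of PYCR1, rose by 0.71 (SE 0.20) in the silencing experiment, with overlap of the groups and the call lost in 4 of 6 fits that left out 1 library, and fell by 0.79 (SE 0.08) in the overexpression experiment. ALDH18A1, the first enzyme of proline synthesis, did not pass at -0.07 (SE 0.09) and 0.09 (SE 0.05). PRODH, which oxidizes proline, was at 0.62 (SE 0.47) in the silencing experiment without passing and fell by 0.63 (SE 0.21) in the overexpression experiment. ALDH4A1, the next enzyme of proline oxidation, rose by 0.88 (SE 0.17) in the libraries labelled DOX and by 0.33 (SE 0.11) in LNCaP/MUC1-C OE cells, the latter a call lost without LNCaP replicate 2 or without LNCaP/MUC1-C OE replicate 1 (adjusted p = 0.0686 and 0.0709, edgeR).

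Named pseudogenes exist in RefSeq for MTHFD2 (7), ASNS (5), PSAT1 (4), PSPH (1), SHMT1 (1) and MTHFD1 (1), and SHMT1, SHMT2, MTHFD1, MTHFD2, ALDH1L2 and ASNS overlap other annotated genes. How the counting assigned reads shared with these is not given in the sources used here, so the levels of these genes are uncertain to that extent.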

How the data were processed

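Bulk RNA-Seq libraries of 12 cultures were used, 3 in each of 4 groups, with groups and replicate numbers taken from the sample labels. The labels name a stranded mRNA library kit. They state that cells were cultured in triplicate, so p-values measure the spread between these cultures and not between separately made lines. The authors deposited counts per gene symbol as whole numbers without normalization, 1 table for each experiment. TPM values, deposited by the authors for the silencing experiment only, are scaled for gene length and library size. The submitters' processing notes name STAR, DESeq2 and GRCh38 (hg38), and versions, annotation and counting settings are not given in the sources used here. The overexpression table also held 12 columns of other samples, which were not used.

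Counts were tested with edgeR 4.0.16 (R 4.3.3) separately in each experiment, by the quasi-likelihood test with robust dispersion, TMM normalization, the default filter on low counts and Benjamini-Hochberg adjustment over all genes tested. A gene passed at an adjusted p under 0.05. CPM values beside a test are TMM-normalized. The standard error (SE) is the log2 fold change divided by the square root of the F statistic. TPM values were tested with limma 3.58.1 on log2(TPM + 1) for genes with at least 1 TPM in 3 libraries. Alternatives were DESeq2 1.42.0, other scalings and filters, a minimum log2 fold change of 1 in size, a replicate block and each library left out in turn. The fits were also run on simulated data, drawn with equal levels in both groups except in genes given a set change. No support for the results is drawn from that run. PYCR3 and 1 other related gene were listed under older symbols for the overexpression experiment and were matched through RefSeq synonyms. Promoter windows, gene positions and pseudogenes came from RefSeq tables on GRCh38.p14.

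The 10 genes, the related genes, the marker lists and the tests were chosen with earlier results of these data known. Named related genes were the 3 largest rises and 3 largest falls among those that passed with a mean of at least 5 CPM in each experiment, together with ATF4, MYC, MTHFD1L, TYMS, GLDC, CBS, CTH, SLC25A32, SFXN1, ALDH18A1, PYCR3, PRODH, ASNSD1, ASPG and ASRGL1. Some genes that this rule covers are not reported here. DDIT3, TRIB3, NFE2L2, EHMT2, GART and GLUD1 were named after their values were seen. Counts carry no molecular identifiers, so counting error is a lower limit of the error of a library.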

Additional observations from a re-analysis of the deposited data

How the results depend on the processing

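Of the 10 genes, the 7 that passed as lower in the libraries labelled DOX became 3 when a log2 fold change of 1 or more in size was also required and 3 to 7 with 1 library left out. On the log2(TPM + 1) and log2(TPM + 0.1) scales 3 of the 10 genes passed, of which PSAT1 and MTHFD2 were lower and SHMT1 higher, and 0 passed on TPM without a filter (limma, where 1589 of all genes passed). The 18 related genes became 4, 10 to 28, 20 and 7 under the same settings, and the 4006 of all genes became 988, 2002 to 5243, 5252 and 1589. The lowest counts of all genes and related genes came without vehicle replicate 3, and the highest without the library labelled DOX replicate 2. In the overexpression experiment, a log2 fold change of at least 1 left 5 of 9, 10 of 38 and 1917 of 9312. Leaving out 1 library gave 7 to 10 of the 10 genes there. Nothing is read from this range, because the share of all genes that passed in those fits is not given beside it.

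Among the 10 genes, signs turned in the silencing experiment alone, while 2 related genes that passed in the overexpression experiment (GART and GLUD1) turned to -0.04 and -0.03 with library size only. SHMT1 was at 0.00066 with DESeq2, 0.00072 with median-of-ratios factors, 0.042 with library size only, -0.12 to 0.16 with 1 library left out (the highest without the library labelled DOX replicate 2, and 0.02 without vehicle replicate 1), 0.49 on log2(TPM + 1) and without a TPM filter, and 0.51 on log2(TPM + 0.1). MTHFD1 was at 0.37, 0.38 and 0.37 on log2(TPM + 1), log2(TPM + 0.1) and TPM without a filter, and PYCR1 at 0.13 on all 3. ALDH1L2 ran from -0.95 without the library labelled DOX replicate 2 to 0.17 without that labelled DOX replicate 3, with 0.07 without vehicle replicate 3, and was at 0.027 on TPM without a filter. The TPM shift applies to all genes, whose share that passed as higher came to 46.8% under TMM, to 59.6% when scaled by library size only and to 95.2% on log2(TPM + 1). For MUC1-C overexpression, library size alone moved the median of all genes to -0.16 and this share from 49.4% to 32.3%.

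Deviations of same-numbered libraries from their group means had correlations of -0.18 to 0.16. With 3 libraries in each group, these values cannot settle whether the numbers pair the samples. With the number as a replicate block, 7 and 9 of the 10 genes, 22 and 36 related genes and 4226 and 8965 of all genes passed in the silencing and overexpression experiments, and this moved no count by over 1.5 times.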

Other observations

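The 2 count tables were made separately, so levels of the 10 genes in the parental and the enzalutamide-resistant cells can only be set side by side, as CPM of the library total and without a test. ALDH1L2 was at 65.1 ± 1.92 CPM (SD, n = 3) in LNCaP cells and 0.671 ± 0.279 CPM in vehicle-treated LNCaP-ER cells. ASNS was at 75.0 ± 4.70 CPM in LNCaP cells and 18.0 ± 2.39 CPM in vehicle-treated LNCaP-ER cells, and MTHFD1 at 522 ± 7.96 and 164 ± 12.1 CPM. In the other direction, PSAT1 was at 162 ± 3.01 CPM in LNCaP cells and 715 ± 144 CPM in vehicle-treated LNCaP-ER cells, and SHMT2 at 116 ± 3.52 and 389 ± 58.2 CPM. PHGDH was at 213 ± 2.60 and 200 ± 30.9 CPM. MTHFD2 was at 204 ± 2.23 and 217 ± 47.7 CPM. PSPH was at 35.7 ± 1.33 CPM in LNCaP cells and 84.7 ± 9.75 CPM in vehicle-treated LNCaP-ER cells. In the same order, PYCR1 was at 95.1 ± 1.07 and 181 ± 11.9 CPM, and SHMT1 at 98.4 ± 3.68 and 66.9 ± 6.10 CPM. The luminal markers, which also differed between these tables, are given with the depth of the libraries, and their part in these values was not tested.

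ALDH1L1, the cytosolic counterpart of ALDH1L2, was singled out after its values were seen. Vehicle replicates 1 to 3 held 1, 6 and 4 counts and the libraries labelled DOX held 28, 92 and 36, the highest being replicate 2, the library with the fewest genes at 0 counts. It had 0 or 1 counts in each of the 6 libraries of the overexpression experiment.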
